A study of Danio rerio with 10 samples.

Results

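The genes described here mark the endothelium, the cell layer that lines blood and lymph vessels, in the dorsal muscle of adult zebrafish. They were taken by name as *kdr*, *kdrl*, *flt1*, *flt4*, *tie1*, *tek*, *cdh5*, *pecam1* and *egfl7*, 9 names in all. Of these, 7 had a row in the deposited tables, out of 17373 zebrafish genes listed in the torpor table. The 6 genes *kdr* (ENSDARG00000017321), *flt1* (ENSDARG00000019371), *flt4* (ENSDARG00000104453), *tie1* (ENSDARG00000004105), *tek* (ENSDARG00000028663) and *egfl7* (ENSDARG00000100657) have a one-to-one human orthologue and were read in all 3 tables, among 9411 such genes. The gene *pecam1* (ENSDARG00000060263) is one of several zebrafish copies of its human orthologue and was read in the torpor table only. The genes *kdrl* and *cdh5* were not analysed here.

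Endothelial cells receive growth and survival signals through families of receptor tyrosine kinases. Vascular endothelial growth factors (VEGFs) bind the receptors encoded by *kdr*, *kdrl*, *flt1* and *flt4*, and angiopoietins bind the receptor encoded by *tek*, which pairs with the related receptor encoded by *tie1*. The cells hold to each other through junctions, in which VE-cadherin (*cdh5*) and PECAM (*pecam1*) are among the adhesion proteins. In skeletal muscle the endothelium forms the capillary bed that runs along the fibres.

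Fish of the AB strain were used in 4 groups. The radiation group (3 fish) was kept at 28.5 °C and received 32.64 cGy to the whole body, the torpor group (2 fish) was acclimated to 18.5 °C and given 24 µM melatonin for 10 days, and the induced torpor+radiation group (3 fish) received both treatments. The control group (2 fish) was kept at 28.5 °C with neither. Torpor here stands for cold and melatonin together, so their shares cannot be told apart in these 4 groups. The dose was split over 2 exposures, the last of them 2 days before sampling. For each exposure fish were anesthetized with tricaine, placed singly in dishes and then left to recover in a temporary tank. The methods describe this handling only for irradiated fish, so its share and that of the dose cannot be told apart. The fish codes begin with F for the 3 radiation and 2 control fish and with M for the 2 torpor fish, while the induced torpor+radiation group has 2 with M and 1 with F. The letters are not explained in the labels, and in the torpor against control comparison they cannot be told apart from the treatment. They also differ in part between induced torpor+radiation and each of the other groups, control included.

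The tables give no value per fish and no total count per library, so depth is unknown and no spread between single fish could be shown. They give baseMean, the mean over all 10 fish of counts divided by size factors, and the log2 fold change of each treated group over the control with its standard error (SE). From these, group means in normalized counts were recovered for the 6 one-to-one genes, and each is given below with the range of 1 SE on either side. Levels of the members were compared between groups for 1 gene at a time, since gene length is not in the tables. For marker lists, group means were also summed over genes. Such a sum follows its most abundant genes and has no SE. A gene was called changed at an adjusted p of 0.4 or less for radiation against control and 0.1 or less for both torpor groups against control, the thresholds of the study for these comparisons. A threshold of 0.1 was also set for the other contrasts. The labelled tissue was checked with fast muscle genes, of which 10 had baseMean between 293 and 419048 in the torpor table. There, 5 of these 10 were called lower in torpor against control and 1 higher, with a median log2 fold change of -0.81 and 9 of 10 below 0, where 4.82% of genes of every homology type were called lower. The shares of such genes called higher or lying below 0 were not counted. The part of these fibre genes in the endothelial results was not tested. Markers of oocytes, taken over 7 genes, summed to 18.7 normalized counts in the radiation group, 16.5 in torpor, 9.97 in induced torpor+radiation and 544 in control. The control group thus stood apart in these markers, and their part in the comparisons with control was not tested.

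Of the VEGF receptors, *kdr* was lower in induced torpor+radiation than in either group kept at 28.5 °C, and *flt4* was called in no comparison. *kdr* is the gene of a main signalling receptor for VEGF-A. Its recovered mean was 147 normalized counts (1 SE range 121 to 180) in radiation, 93.4 (72.7 to 120) in torpor, 64.1 (52.1 to 78.9) in induced torpor+radiation and 184 (144 to 235) in control. The groups at 18.5 °C held the lower pair of means and the groups at 28.5 °C the higher pair. The 1 SE ranges of the 2 pairs did not overlap, although the torpor range ended just below the start of the radiation range. Such ranges are not a test, and torpor alone was called different from neither group at 28.5 °C. Its log2 fold change was -0.98 against control (SE 0.50, 95% interval -1.96 to 0.01, adjusted p = 0.25, Wald test). Against radiation it was -0.66 (SE 0.46, adjusted p = 0.44, Wald test). In the authors' deposited table, *kdr* fell 2.87-fold in induced torpor+radiation against control, a log2 fold change of -1.52 (SE 0.46, 95% interval -2.43 to -0.61, adjusted p = 0.015, Wald test with Benjamini-Hochberg adjustment). Against radiation, *kdr* fell 2.30-fold (log2 fold change -1.20, SE 0.42, 95% interval -2.02 to -0.39, adjusted p = 0.038). In bulk tissue, fewer endothelial cells, less RNA per endothelial cell and a change in the RNA of other cells cannot be told apart. This holds for *kdr* and for the endothelial genes that follow. Ordered from low to high, the means of *kdr* ran through induced torpor+radiation, torpor, radiation and control, and no neighbouring pair in that order was called different.

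*flt1* encodes a receptor that binds VEGF-A tightly, signals weakly and limits the VEGF-A that reaches other receptors. Its mean was 50.7 (38.1 to 67.5) in radiation, 32.6 (22.8 to 46.6) in torpor, 26.0 (19.3 to 35.0) in induced torpor+radiation and 69.5 (49.2 to 98.2) in control. The order of the 4 groups was that of *kdr*, with wider errors. The log2 fold change in the authors' deposited table was -1.42 for induced torpor+radiation against control (SE 0.66, 95% interval -2.71 to -0.13, adjusted p = 0.15, Wald test) and -1.09 for torpor against control (SE 0.71, adjusted p = 0.41), neither of them called. No neighbouring pair of its means was called different.

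*flt4* encodes the receptor for VEGF-C, known for lymphatic and venous endothelium. Its mean was 44.6 (34.6 to 57.6) in radiation, 52.9 (38.8 to 72.1) in torpor, 43.0 (33.3 to 55.6) in induced torpor+radiation and 44.3 (32.4 to 60.6) in control. All 4 ranges overlapped. The log2 fold change against control was 0.01 with radiation (SE 0.58), 0.25 with torpor (SE 0.63) and -0.04 with both (SE 0.58), and each 95% interval reached past 1 on the log2 scale in at least 1 direction.

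**Figure D1:**
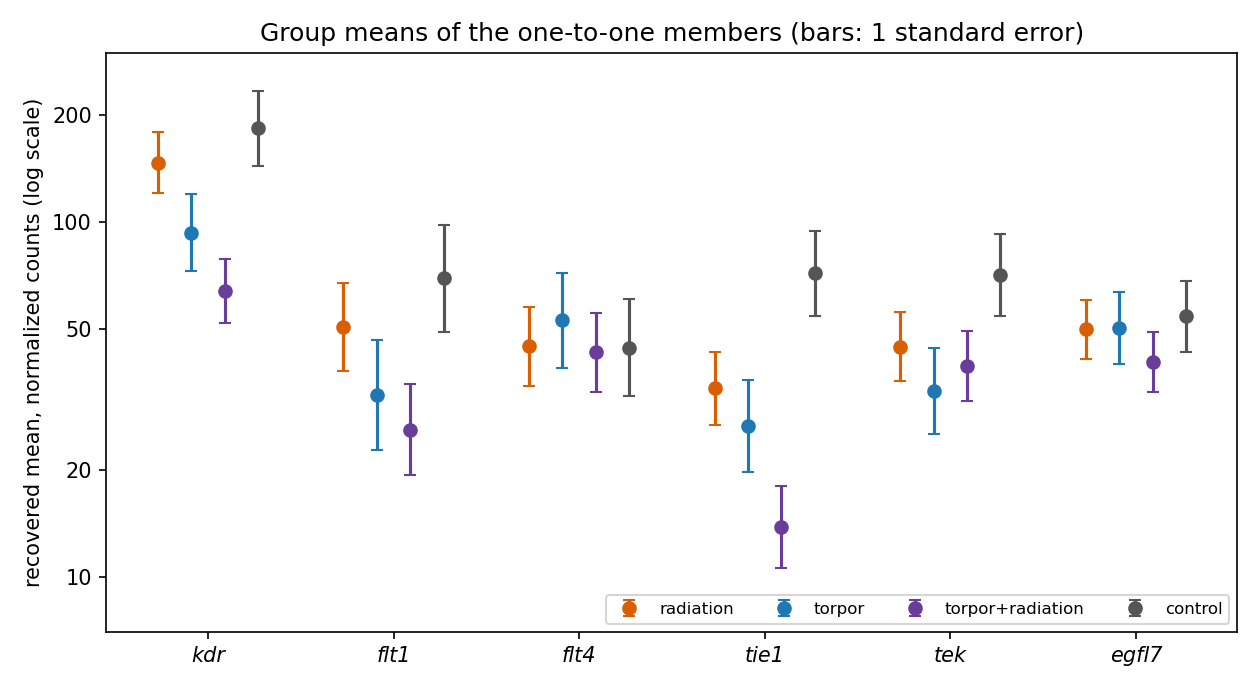
Recovered mean normalized count (log scale) of the 6 one-to-one endothelial genes in the radiation, torpor, induced torpor+radiation and control groups, with bars of 1 SE from the recovered dispersion. *kdr*, *flt1* and *tie1* share the order induced torpor+radiation, torpor, radiation, control from low to high, with *tie1* between 13.8 and 71.8 normalized counts, while the 4 means of *flt4* lie between 43.0 and 52.9.

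Of the angiopoietin receptor pair, *tie1* had the largest estimated change of the 6 genes against control and was lower in induced torpor+radiation than in either group kept at 28.5 °C, and *tek* was called in no comparison. *tie1* encodes a receptor with no well-established ligand of its own that modulates the receptor encoded by *tek*. Its mean was 34.0 (26.9 to 43.1) in radiation, 26.7 (19.8 to 35.9) in torpor, 13.8 (10.6 to 18.0) in induced torpor+radiation and 71.8 (54.5 to 94.7) in control. The control range lay above those of all 3 treated groups, and the induced torpor+radiation range lay below those of the other groups. In the authors' deposited table, *tie1* fell 5.19-fold in induced torpor+radiation against control (log2 fold change -2.38, SE 0.55, 95% interval -3.46 to -1.29, adjusted p = 0.00074, Wald test). Against radiation, it fell 2.46-fold (log2 fold change -1.30, SE 0.51, 95% interval -2.30 to -0.29, adjusted p = 0.078).

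Neither treatment alone gave a called change of *tie1*. The deposited log2 fold change was -1.43 for torpor against control (SE 0.58, 95% interval -2.57 to -0.29, adjusted p = 0.12, Wald test) and -1.08 for radiation against control (SE 0.53, 95% interval -2.11 to -0.04, adjusted p = 0.74). Both intervals lay below 0 before adjustment, with an unadjusted p of 0.014 for torpor and 0.041 for radiation. Centred on the median gene, *tie1* in torpor against control had an adjusted p of 0.091 and was called. Neighbours in the order of means, induced torpor+radiation, torpor, radiation and control, were not called different.

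*tek* encodes the angiopoietin receptor of endothelial cells, which steadies mature vessels. Its mean was 44.6 (35.7 to 55.8) in radiation, 33.5 (25.3 to 44.4) in torpor, 39.3 (31.3 to 49.3) in induced torpor+radiation and 70.9 (54.3 to 92.6) in control. The 3 treated groups overlapped each other, and the control mean was the highest. Against control, the deposited log2 fold change was -0.67 with radiation (SE 0.51, adjusted p = 1, Wald test), -1.08 with torpor (SE 0.56, adjusted p = 0.25) and -0.85 with both (SE 0.51, adjusted p = 0.30). Against radiation, induced torpor+radiation gave -0.18 (SE 0.46).

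The remaining members belong to the vessel matrix and to the junctions. *egfl7* encodes a secreted protein that endothelial cells lay down around growing vessels. Its mean was 50.0 (41.3 to 60.5) in radiation, 50.3 (39.8 to 63.5) in torpor, 40.4 (33.3 to 49.1) in induced torpor+radiation and 54.3 (43.0 to 68.4) in control. All 4 ranges overlapped, and the largest deposited difference was -0.42 on the log2 scale (SE 0.44, adjusted p = 0.60) for induced torpor+radiation. *pecam1* had a baseMean of 165 and a deposited log2 fold change of -1.24 for torpor against control (SE 0.53, 95% interval -2.28 to -0.20, unadjusted p = 0.02, adjusted p = 0.14, Wald test), which was not called. A second copy, *pecam1b* (ENSDARG00000103020), listed there under another name and so outside the rule, had a baseMean of 9.54 and a log2 fold change of -0.76 (SE 0.82, adjusted p = 0.67).

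Over the 6 one-to-one genes, *kdr* and *tie1* were called with both treatments together and no gene with either treatment alone. With radiation against control, *kdr* gave -0.32 (SE 0.46), *flt1* -0.45 (SE 0.65) and *egfl7* -0.12 (SE 0.44). With torpor against control, *egfl7* gave -0.11 (SE 0.47). For radiation, 0 of 6 were called lower, where 1.3% of the one-to-one genes tested were. In the DESeq2 Wald test of the authors 1 of 6 had an unadjusted p under 0.05, against 5% of genes tested. For torpor, 0 of 6 were called lower, against 3.83% of genes tested, and 1 of 6 had an unadjusted p under 0.05, against 20%. For induced torpor+radiation, 2 of 6 were called lower, against 6.43%, and 3 of 6 had an unadjusted p under 0.05, against 23.7%. The median log2 fold change of the 6 genes was -0.39 with radiation, where that of 6504 genes at a baseMean of 10 or more was 0.05. It was -1.03 with torpor (0.05 over all genes) and -1.14 with both (0.09 over all genes). These comparisons share the 2 control fish. A t distribution with 6 degrees of freedom in place of the normal one left 0 of the 6 called in induced torpor+radiation, with 2 at an unadjusted p under 0.05 and an adjusted p of 0.28 for *kdr* and 0.26 for *tie1*.

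**Figure D2:**
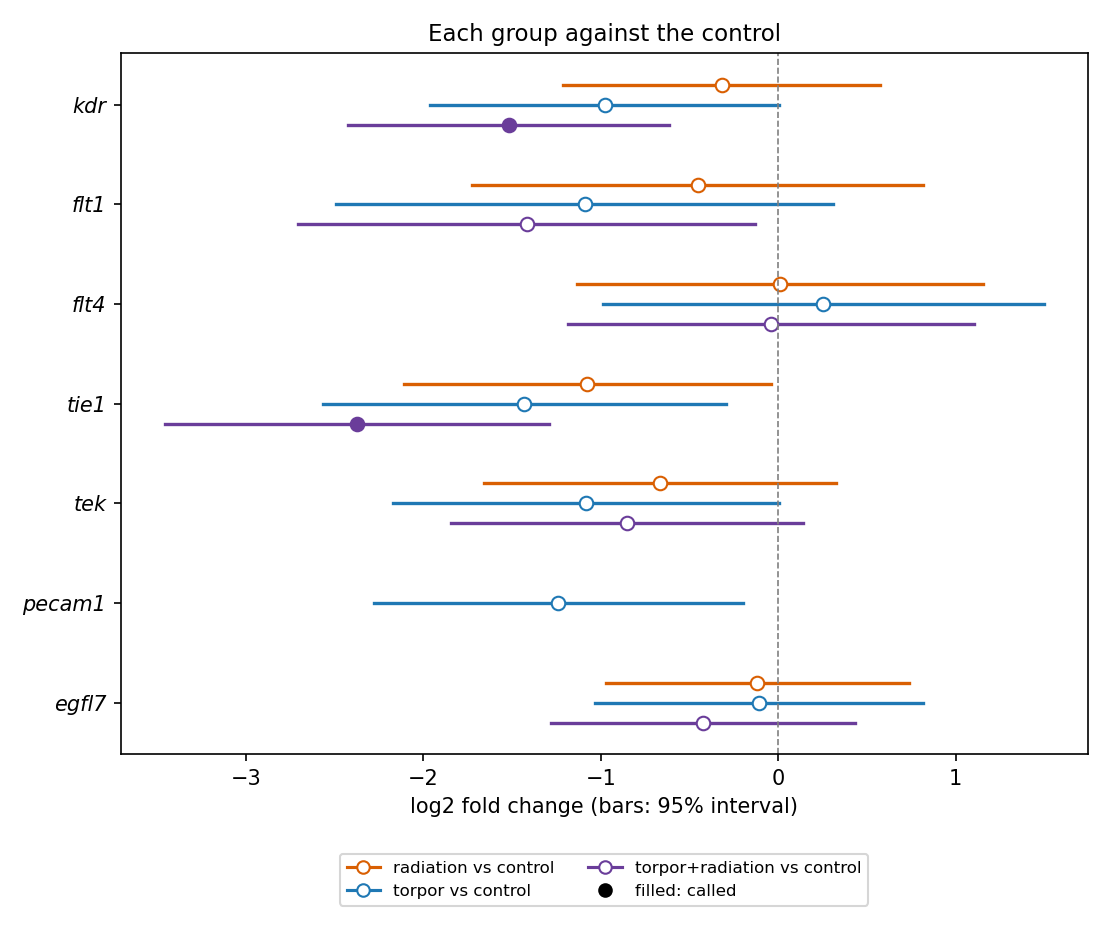
Log2 fold change against control of each endothelial gene in radiation, torpor and induced torpor+radiation, with bars of 95% intervals and filled points for called genes. The filled points are *kdr* at -1.52 and *tie1* at -2.38, both in induced torpor+radiation, and *pecam1* is shown for torpor only.

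Torpor could be compared in a second way that leaves out the control mean, with irradiated fish on both sides. In induced torpor+radiation against radiation, 6 of 6 genes lay below 0, against 46.2% of all 6504 genes. Their median was -0.63, where that of all 6504 genes was 0.06. Of the 6, 2 were called lower (*kdr* and *tie1*), against 6.98% of genes tested. By the Wald test, 2 of 6 had an unadjusted p under 0.05, against 25.2% of genes tested. *flt1* gave -0.96 (SE 0.59, adjusted p = 0.32, Wald test), *egfl7* -0.31 (SE 0.39) and *flt4* -0.05 (SE 0.52). The markers of oocytes, which set the control apart, had no called member of 4 tested here by the same Wald test, with 1 at an unadjusted p under 0.05. Their log2 fold changes ran from -2.57 to 0.71 with a median of -0.97, and 3 of 4 lay below 0. Their part in this contrast was not tested. With the t distribution, 0 of the 6 endothelial genes were called in this contrast, with 2 at an unadjusted p under 0.05 and an adjusted p of 0.27 for *kdr* and 0.31 for *tie1*. Without the baseMean filter *tie1* had an adjusted p of 0.11.

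The unirradiated and the irradiated comparison gave like estimates for *kdr* (-1.20 in irradiated and -0.98 in unirradiated fish) and *tie1* (-1.30 in irradiated and -1.43 in unirradiated fish). They differed most for *tek*, with -0.18 in irradiated fish and -1.08 in unirradiated fish. The interaction, which is the difference between these estimates, was 0.90 for *tek* (SE 0.72, 95% interval -0.52 to 2.32, unadjusted p = 0.21) and 0.13 for *tie1* (SE 0.78, 95% interval -1.39 to 1.66), and 0 of 6 genes were called in either direction, against 0.461% of genes tested (0.154% called with a value below 0). It was 0.13 for *flt1* (SE 0.93), -0.20 for *egfl7* (SE 0.62), -0.22 for *kdr* (SE 0.65) and -0.31 for *flt4* (SE 0.82). By the same Wald test, 0 of the 6 had an unadjusted p under 0.05, against 4.87% of genes tested. Each of the 6 intervals reached past 1 on the log2 scale in at least 1 direction.

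Averaged over irradiated and unirradiated fish, a contrast added after the data were seen, 3 of 6 genes were called lower with torpor, against 12.3% of genes tested. By the Wald test, 3 of 6 had an unadjusted p under 0.05, against 33.9% of genes tested. *tie1* had a log2 fold change of -1.36 (SE 0.39, 95% interval -2.13 to -0.60, adjusted p = 0.0042, Wald test), *kdr* of -1.09 (SE 0.33, 95% interval -1.73 to -0.45, adjusted p = 0.007) and *flt1* of -1.03 (SE 0.47, 95% interval -1.94 to -0.12, adjusted p = 0.095). *tek* gave -0.63 (SE 0.36, adjusted p = 0.21), *egfl7* -0.21 (SE 0.31) and *flt4* 0.10 (SE 0.41, 95% interval -0.70 to 0.91). The t distribution left 0 of 6 called, with 2 at an unadjusted p under 0.05, and the adjusted p was then 0.12 for *tie1*, 0.13 for *kdr* and 0.24 for *flt1*.

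**Figure D3:**
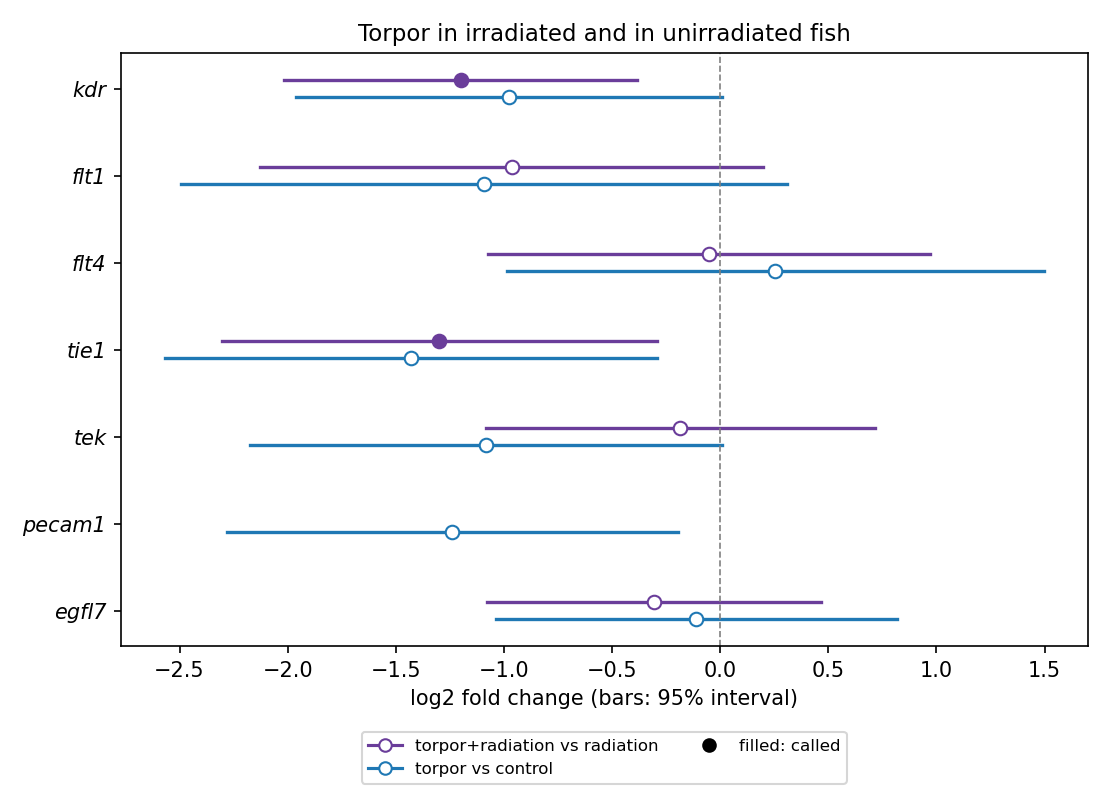
Log2 fold change of each endothelial gene with torpor in irradiated fish (induced torpor+radiation against radiation) and in unirradiated fish (torpor against control), with bars of 95% intervals and filled points for called genes. For *kdr* the estimates are -1.20 in irradiated and -0.98 in unirradiated fish and for *tie1* -1.30 in irradiated and -1.43 in unirradiated fish, both called in irradiated fish, while the estimates of *tek* are -0.18 in irradiated fish and -1.08 in unirradiated fish.

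Radiation could likewise be read at 18.5 °C, as induced torpor+radiation against torpor. There 0 of 6 genes were called lower, against 0.108% of genes tested, and 0 of 6 had an unadjusted p under 0.05 in the Wald test, against 4.18%. *tie1* had the lowest estimate, -0.95 (SE 0.57, 95% interval -2.07 to 0.18, adjusted p = 1), followed by *kdr* with -0.54 (SE 0.47), and *tek* was above 0 with 0.23 (SE 0.52). *flt1* gave -0.33 (SE 0.67), *egfl7* -0.31 (SE 0.44) and *flt4* -0.30 (SE 0.58). Averaged over both temperatures, also a contrast added after the data were seen, *tie1* gave -1.01 with radiation (SE 0.39, 95% interval -1.77 to -0.25, unadjusted p = 0.0092, adjusted p = 0.96) and the other 5 genes lay between -0.43 and -0.14, none of them called.

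Ligands of the VEGF, angiopoietin and apelin families were read next, from lists drawn up with earlier results of these data known. Of their 5 one-to-one genes tested, 0 were called by the Wald test in any comparison. At most 1 had an unadjusted p under 0.05, in induced torpor+radiation against control (23.7% of all genes tested). The mean of *vegfc*, the ligand gene for *flt4*, was 25.3 in radiation, 37.2 in torpor, 29.3 in induced torpor+radiation and 21.1 in control. The mean of *angpt1*, the ligand gene for *tek*, was 45.2 in radiation, 60.9 in torpor, 77.0 in induced torpor+radiation and 61.7 in control. *angpt2a*, the gene of an angiopoietin that can also oppose *tek* signalling, averaged 15.1 in radiation, 11.3 in torpor, 6.24 in induced torpor+radiation and 20.3 in control, the order of *kdr* and *tie1*. It had the list's lowest value against control, -1.70 for induced torpor+radiation (SE 0.81, unadjusted p = 0.037, adjusted p = 0.17, Wald test), which was not called. Both VEGF-A genes, the ligand genes for *kdr* and *flt1*, were read in the torpor table only, where *vegfaa* had a log2 fold change of 0.56 (SE 0.41, adjusted p = 0.47) and *vegfab* of 0.65 (SE 0.36, adjusted p = 0.30). The ligand estimates thus lay on either side of 0.

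Among co-receptors and signalling partners, 12 one-to-one genes were tested. Against control, 2 of 12 were called lower in torpor (3.83% of all genes tested) and 3 of 12 in induced torpor+radiation (6.43% of all genes tested), where 1 (*shc1*, an adaptor gene, log2 fold change 0.60) was called higher, against 9.09% of all genes tested. *nrp1a*, the gene of a neuropilin that binds VEGF beside the receptors, averaged 49.3 normalized counts in radiation, 29.9 in torpor, 33.1 in induced torpor+radiation and 83.7 in control. Its deposited log2 fold change was -1.49 for torpor (SE 0.43, adjusted p = 0.012, Wald test) and -1.34 for induced torpor+radiation (adjusted p = 0.01). *ptprb*, the gene of an endothelial phosphatase that acts on the receptor encoded by *tek* and on VE-cadherin, gave -1.35 for torpor (SE 0.43, adjusted p = 0.028) and -1.05 for induced torpor+radiation (adjusted p = 0.057). *heg1*, the gene of a membrane protein that anchors the cerebral cavernous malformation complex at endothelial junctions, gave -1.70 for induced torpor+radiation (adjusted p = 0.022). Over listed genes of every homology type, torpor against control called 3 of 19 lower (4.82% of all genes), among them *ptk2aa* with -1.56 (SE 0.47, adjusted p = 0.018, Wald test). In induced torpor+radiation against radiation, 0 of 12 were called by the Wald test and 1 had an unadjusted p under 0.05 (25.2% of all genes). Of the 12, 11 lay below 0 with a median of -0.45, where 46.2% of all genes lay below 0.

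Of the other junction and surface genes, 15 one-to-one genes were tested and those called were all lower. Torpor against control called 4 of 15 (median -0.36, 3.83% of all genes tested called lower), induced torpor+radiation against control 5 of 15 (median -0.28, 6.43% of all genes) and induced torpor+radiation against radiation 4 of 15 (median -0.40, 6.98% of all genes). The estimates were not all below 0. In torpor against control 10 of 15 were (47.3% of all genes), with a range from -1.51 to 0.95 (*vwf*, not called). Below 0 lay 10 of 15 in induced torpor+radiation against control (45.2% of all genes) and 13 of 15 against radiation (46.2%). *she*, the gene of an adaptor protein known from zebrafish vascular endothelium, averaged 151 in radiation, 50.2 in torpor, 38.1 in induced torpor+radiation and 143 in control. Its log2 fold change was -1.98 for induced torpor+radiation against radiation (SE 0.45, adjusted p = 0.00036, Wald test) and -1.51 for torpor against control (SE 0.54, adjusted p = 0.06). *podxl*, the gene of podocalyxin on the vessel lumen side, averaged 572 in radiation, 351 in torpor, 313 in induced torpor+radiation and 794 in control, and was called lower in all 3 of these comparisons. So was *ctnna1*, the gene of the alpha-catenin that ties cadherins to actin in many cell types, with -0.82 for induced torpor+radiation against radiation (adjusted p = 0.032).

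Caveolin genes, whose proteins shape membrane pits abundant in endothelium, muscle and fat, were also among those called. *cav2* gave -1.01 for torpor (adjusted p = 0.09, Wald test) and -1.10 for induced torpor+radiation (adjusted p = 0.026), each against control, and *cav1* gave -0.78 for induced torpor+radiation against radiation (adjusted p = 0.066). With genes of every homology type, 7 of 36 junction and surface genes were called lower in torpor against control, where 4.82% of the genes tested were, and these included the caveolae coat genes *cavin1b* with -1.34 (adjusted p = 0.0066) and *cavin2b* with -0.98 (adjusted p = 0.017). Of the 33 with baseMean of at least 10, 22 lay below 0, a share that was not counted over all genes of every homology type. The highest estimate was that of *lyve1a*, 2.83 (SE 1.21, adjusted p = 0.14, Wald test), which was not called.

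Endothelial markers outside the 9 names had 11 one-to-one rows, all 11 of them also on 1 of the other lists, so their calls repeat genes already counted there or on the list of transcription factors. Of 10 tested, 0 were called lower with radiation by the Wald test, against 1.3% of all genes tested, and 0 had an unadjusted p under 0.05, against 5%. With torpor 1 (*she*) was called lower against control (3.83% of all genes) and with induced torpor+radiation 2 were (6.43%), *she* and *adgrl4*, an adhesion receptor gene with -1.04 (SE 0.40, adjusted p = 0.07). In induced torpor+radiation against radiation 2 were called lower (6.98% of all genes), *she* and *tal1*. Below 0 lay 6 of 10 in torpor against control (47.3% of all genes), with a median of -0.20 and a range from -1.51 to 0.77. In induced torpor+radiation it was 8 of 10 against control (median -0.34, 45.2% of all genes). Against radiation it was 9 of 10 (median -0.46, 46.2% of all genes). Over markers of every homology type, torpor against control called 2 of 19 lower (4.82% of all genes), *she* and *plvapa*. *plvapa* had a log2 fold change of -1.14 (SE 0.42, adjusted p = 0.071, Wald test). The summed level of the 11 genes was 926 normalized counts in radiation, 749 in torpor, 613 in induced torpor+radiation and 886 in control. *fli1a*, a pan-endothelial transcription factor gene, averaged 246 in radiation, 205 in torpor, 184 in induced torpor+radiation and 249 in control. *stab2*, a scavenger receptor gene of venous and lymphatic endothelium, averaged 68.8 in radiation, 102 in torpor, 66.5 in induced torpor+radiation and 60.0 in control. Neither *fli1a* nor *stab2* was called, and both were picked for naming after their values were seen.

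Markers of cells that surround or pass through vessels were also read, and their part in the endothelial results was not tested. Over all genes tested, 3.83% were called lower in torpor and 6.43% in induced torpor+radiation, each against control. In induced torpor+radiation against radiation, 6.98% were. Mural cell markers summed over 7 genes to 1996 in radiation, 1633 in torpor, 1649 in induced torpor+radiation and 2236 in control, and 2 of 7 (*tbx18* and *notch3*) were called lower in torpor, *tbx18* also in induced torpor+radiation (log2 fold change -0.96, adjusted p = 0.064, Wald test), each against control. Leukocyte markers summed over 5 genes to 360 in radiation, 133 in torpor, 212 in induced torpor+radiation and 208 in control, with 1 of 4 tested (*lcp1*, log2 fold change -1.01, adjusted p = 0.02) called lower in induced torpor+radiation against radiation. Fibroblast markers summed over 6 genes to 11864 in radiation, 6171 in torpor, 16887 in induced torpor+radiation and 15965 in control, with 3 of 6 (*col1a2*, *dcn* and *col5a1*) called lower in torpor. *fbln1*, a matrix protein gene of the fibroblast list, was called lower in both contrasts in which *kdr* and *tie1* were, with -1.66 for induced torpor+radiation against radiation (SE 0.56, adjusted p = 0.031, Wald test) and -1.74 against control (SE 0.61, adjusted p = 0.044). *col1a2* was called higher in induced torpor+radiation against torpor, with 1.93 (SE 0.49, adjusted p = 0.053, Wald test). In that contrast 14 of 6504 genes were called in either direction. The erythrocyte gene *alas2* averaged 51.7 in radiation, 37.8 in torpor, 35.1 in induced torpor+radiation and 40.9 in control. Among single genes, 1 of the 7 mural genes (*pdgfrb*) and 1 of the 6 fibroblast genes (*fbln1*) had the 4 means in the order of *kdr* and *tie1*. So did 2 of 5 genes of the response to low oxygen (*bnip3* and *pdk1*), 1 of 7 oocyte genes and 0 of 5 leukocyte genes. On the endothelial lists it was 3 of 17 junction and surface genes and 2 of 13 transcription factor genes. It was also 1 of 12 co-receptor and signalling genes, 1 of 6 ligand genes and 0 of 3 genes of the vessel Notch pathway. Of the 11 other endothelial markers, which repeat genes of these lists, 2 had it. The order was taken from *kdr* and *tie1* themselves. The share of all genes with this order was not counted, so these counts have no reference.

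**Figure D4:**
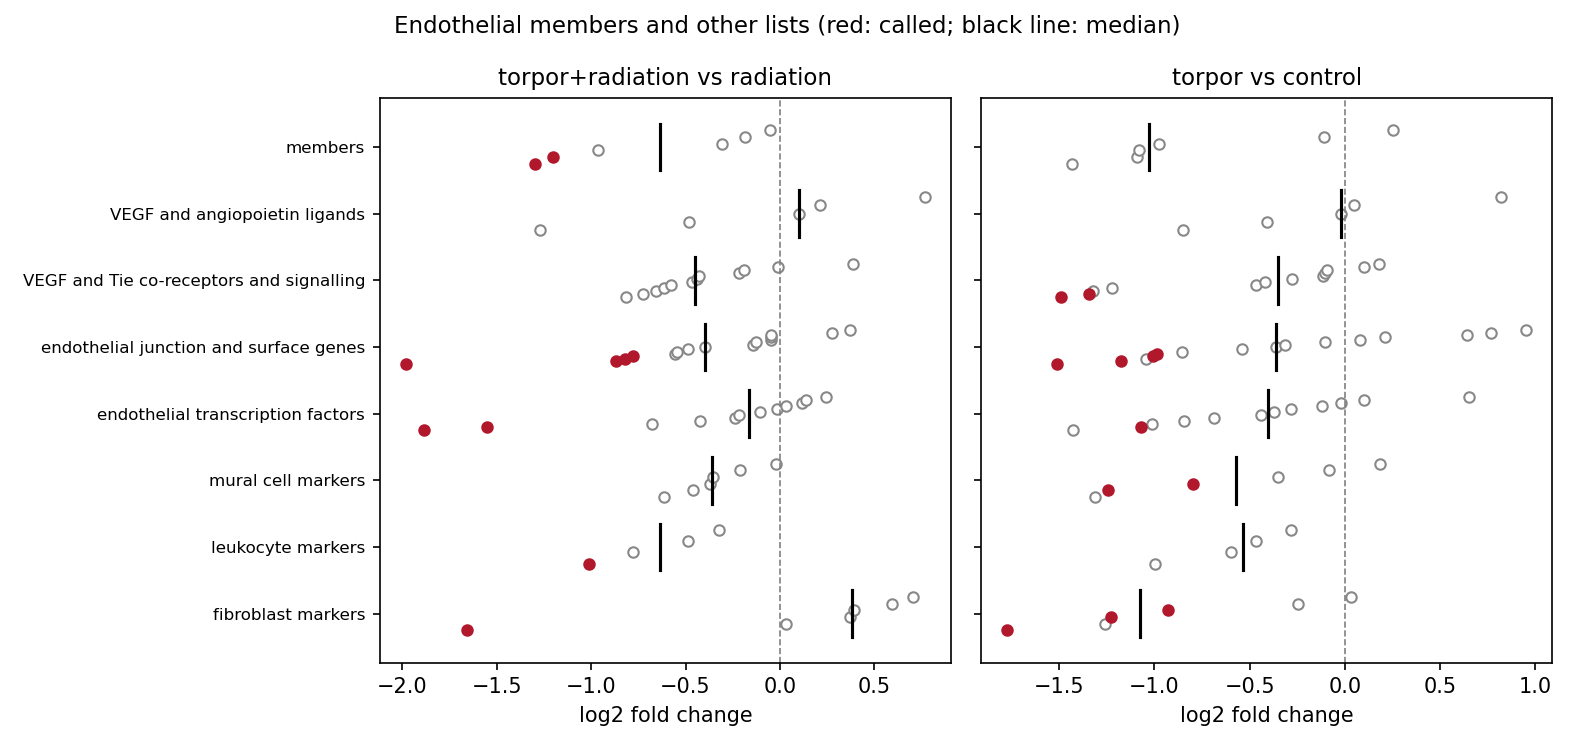
Log2 fold changes of the 6 endothelial genes and of genes on other lists with baseMean of at least 10, for induced torpor+radiation against radiation (left) and torpor against control (right), 1 point per gene with called genes in red and the list median as a black line. The endothelial genes have medians of -0.63 (left) and -1.03 (right), while ligands centre near 0 and fibroblast markers lie mostly above 0 on the left and below 0 on the right.

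By their profile over the 3 comparisons with control, the genes nearest to the median of the 6 endothelial genes were *ncor1*, *aldh4a1*, *mms19*, *rnf167* and *clec11a*, at Euclidean distances of 0.06 to 0.13 on the log2 scale among one-to-one genes with baseMean of at least 20. *ncor1* encodes a transcriptional co-repressor and had log2 fold changes of -0.44 with radiation, -1.06 with torpor and -1.15 with both. The profile rests on 3 values that share the control.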

How the data were processed

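RNA of dorsal muscle, which consists mainly of fast twitch fibres, was sequenced as poly A libraries in 10 fish. Per the labels and the methods of the study, the reads passed FastQC and cutadapt, STAR placed them on GRCz11, HTSeq counted them and DESeq2 tested each treated group against the control. Tool versions are not given in the sources used here. The extract protocol in the labels names liver for 1 step, while the tissue label and the methods name muscle. The authors deposited 3 tables with human orthologues added. The deposited signal is baseMean, the mean of size-factor-scaled counts over all fish. The authors' log2 values are the fold change against control, not shrunken, and its SE. The deposited score is the Wald statistic, equal to the fold change over its SE. The authors' p-value comes from a normal reference for that statistic, and its Benjamini-Hochberg adjustment stands beside it. These columns of the authors' own comparisons were read because the tables hold no value per fish. For the same reason no library total, replicate comparison or SD could be given.

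Group means were solved from each gene's 3 fold changes, its baseMean and the number of fish per group. A negative binomial dispersion for each gene, the mean of those implied by the 3 SEs, gave Wald tests for pairs of groups not tabulated, adjusted over 6504 one-to-one genes with baseMean of at least 10 (Python 3.11.15, numpy 2.4.6, scipy 1.17.1). These tests still rest on the dispersion of all 10 fish. SEs recalculated in this way were 0.993 to 1.01 times the deposited ones for the 6 one-to-one members. The calculation was tested on simulated data, drawn and fitted with known dispersions and with changes in 1 group only. That test covers the recovery of means and SEs, not the error of a dispersion estimated from few fish. Intervals are 1.96 SE either side, at 95%. The median deposited SE was 0.43 for the radiation table and 0.46 for the torpor table. P-values rest on a dispersion for each gene from the fit of all 10 fish, not on the spread within any 1 group. They do not cover differences between tanks. Irradiated fish went back to a tank shared by their group, so tank and group cannot be told apart.

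Members are named in the comparisons their rows allow. On the other lists, one-to-one genes called in the comparisons described are named, up to 4 in each direction with the smallest adjusted p first, and the 5 genes nearest in profile. Of called genes of other homology types, some are named and others are not, among them those of fast muscle and of the response to low oxygen. Any other gene was named after its values were seen. The members and the lists were chosen with earlier results of these data known. Alternatives were a t distribution, centring on the median gene, another set of genes in the adjustment, the largest dispersion, a floor of 3 normalized counts for group means, and genes of every homology type. No sequence is printed.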

Additional observations from a re-analysis of the deposited data

How the results depend on the processing

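Of 152 recalculated values for the members, 141 kept their direction and their side of the threshold. Of the settings behind these values, only centring on the median gene alters a fold change, so direction could not turn under the others. Most values were not called to begin with, and each called member lost its call with the t distribution. The count of 141 is thus no measure of how firm the calls are. The reference distribution mattered most. With a t distribution with 6 degrees of freedom, 0 members were called lower in induced torpor+radiation against control, in induced torpor+radiation against radiation and with torpor averaged over both radiation states. Over all one-to-one genes it left 0 called lower in the 3 comparisons with control, in induced torpor+radiation against torpor and against radiation, and in the interaction, and 133 with torpor averaged. Without the baseMean filter, 1 member (*kdr*) was called in induced torpor+radiation against radiation, and *flt1* missed the threshold with torpor averaged (adjusted p = 0.13, Wald test). Centred on the median gene, 1 member (*tie1*, -1.53, adjusted p = 0.091) was called lower in torpor against control, and *flt4* with radiation turned to -0.10. Centring took off 0.15 on the log2 scale in induced torpor+radiation, 0.10 in torpor and 0.11 in radiation, each against control. The number of genes called lower with radiation was 39 with only genes at baseMean of 10 or more in the adjustment, against 99 as deposited, and 556 genes of every homology type were called lower with torpor. The largest dispersion changed no call of a member, and no member mean lay under the floor of 3 normalized counts.

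The labels give no pairing of fish between the 4 groups, so no paired analysis was run. No fish was left out in turn, because the tables carry no value per fish.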

Other observations

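Genes of the response to low oxygen, a known inducer of VEGF, were few among one-to-one genes. Against control, induced torpor+radiation had 2 of 5 tested called lower (6.43% of all genes tested) and 1 called higher (9.09%). *bnip3*, a mitophagy receptor gene, had a log2 fold change of -1.34 (SE 0.46, adjusted p = 0.036, Wald test), *pdk1*, a kinase gene that restrains pyruvate use, of -0.89 (SE 0.35, adjusted p = 0.075) and *pfkfb3*, a glycolytic regulator gene, of 1.61 (SE 0.53, adjusted p = 0.03). *bnip3* was also called lower in induced torpor+radiation against radiation, with -1.32 (SE 0.41, adjusted p = 0.017, Wald test), as 1 of 4 tested there (6.98% of all genes). Torpor against control called 0 of the 5, with 1 at an unadjusted p under 0.05 in the Wald test (20% of all genes). Over genes of every homology type, torpor called 2 of 15 lower (4.82% of all genes) and 1 higher, for which the share of all genes was not counted.

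Of the endothelial transcription factor genes, 13 were tested in the tables. Against control, 2 of 13 were called lower in torpor (3.83% of all genes tested) and 1 of 13 in induced torpor+radiation (6.43%). Against radiation, 2 of 12 were called lower in induced torpor+radiation (6.98%). Torpor against control called *hey1*, a target of Notch signalling, lower with a log2 fold change of -1.07 (SE 0.41, adjusted p = 0.088, Wald test), and *klf4*, a gene known for its response to blood flow, with -2.96 (SE 1.15, adjusted p = 0.096) at a baseMean of 8.33. *prox1a*, a lymphatic regulator also known from slow muscle of the zebrafish embryo, averaged 62.6 normalized counts in radiation, 33.2 in torpor, 16.9 in induced torpor+radiation and 67.0 in control. It was called lower in induced torpor+radiation against radiation (log2 fold change -1.89, SE 0.49, adjusted p = 0.0032) and against control (-1.98, SE 0.55, adjusted p = 0.0064). *tal1*, a gene of blood and vessel progenitors, was called lower in induced torpor+radiation against radiation, with -1.55 (SE 0.59, adjusted p = 0.062).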
